A study of Mus musculus with 4 samples.

Results

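Conventional dendritic cells type 1 (cDC1s) of the nasal mucosa were followed through 4 single-cell RNA-seq libraries, in which 315 of 72320 cells met the rule given next. All 315 are called cDC1s here, although those chosen on Clec9a alone carried fewer of the other cDC1 markers, as described below. A cell was chosen when it carried at least 2 UMIs (unique molecular identifiers, each 1 captured mRNA molecule) of Xcr1 and Clec9a together. It also had fewer than 3 UMIs of Ccr7 and Fscn1 and fewer than 2 of C1qa, C1qb and C1qc, with 0 UMIs of Cd3e, Cd79a, Cxcr2, Siglech and Ncr1. Only cells with at least 500 UMIs, at least 200 genes and under 10% mitochondrial UMIs were eligible. The rule gave 120 cDC1s of 25727 cells in Vehicle, 38 of 17498 in Vehicle-OVA, 120 of 20278 in Ribavirin and 37 of 8817 in Ribavirin-OVA. Because Xcr1 and Clec9a chose the cells, the levels of these 2 genes are a description and support nothing.

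The libraries were made from CD45+ leukocytes of the nasal mucosa of C57BL/6 mice aged 8 weeks. Mice in all 4 groups received either vehicle or ribavirin, an antiviral drug, and the 2 groups whose names end in OVA were in addition exposed to ovalbumin, an egg white protein used as the allergen, which the study describes as given by injection with alum and later into the nose. No genotype other than the strain is given, and neither the number of mice pooled into a library nor the dose and schedule of ribavirin is given in the sources used here. There was 1 library per group, so the spread between mice is unknown, no difference between groups was tested, and all intervals are 95% intervals for counting error only. PCR copies are removed by the UMIs, but the UMIs of a gene cluster in a few deeply read cells, which makes these intervals too narrow.

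cDC1s are the dendritic cells that specialise in taking up dead cells and showing their antigens on MHC class I to CD8 T cells, a route called cross-presentation. They depend on the transcription factors Irf8 and Batf3 and on the cytokine receptor Flt3, they carry the chemokine receptor Xcr1, through which they meet NK and T cells that secrete Xcl1, and they recognise exposed actin of dead cells through the lectin Clec9a. They are also known as a source of IL-12 and of the T cell attracting chemokines Cxcl9 and Cxcl10. The other conventional dendritic cells, type 2 (cDC2s), are known by Cd209a, Sirpa and Clec10a and by presentation to CD4 T cells.

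The cDC1s were among the deeper cells of their libraries, with medians of 12124 UMIs per cell in Vehicle, 4665.5 in Vehicle-OVA, 12822 in Ribavirin and 15374 in Ribavirin-OVA, against medians of 4748, 3432.5, 5131.5 and 5120 over all cells that passed. Below 2000 UMIs were 14 of the 38 cDC1s of Vehicle-OVA and 6 of the 37 of Ribavirin-OVA, against 1 of 120 in each library without OVA. Summed over cDC1s, the 4 libraries held 1560641, 348423, 1633181 and 544794 UMIs, so that Vehicle-OVA gives the least certain values. Levels are given in CPM, the UMIs of a gene summed over the cDC1s of a library and scaled to a total of 1000000, and sets of 4 values are in the order Vehicle, Vehicle-OVA, Ribavirin and Ribavirin-OVA. Any pair of libraries shared 57 to 174 cell barcodes, at most 0.909% of the smaller library, and no cDC1 barcode was shared.

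The 2 genes that chose the cells lie on different chromosomes. In GRCm38, the build behind mm10, Xcr1 (ENSMUSG00000060509) spans positions 123852315 to 123862029 of chromosome 9 on the minus strand, and Clec9a (ENSMUSG00000046080) spans 129408862 to 129424763 of chromosome 6 on the plus strand. The 150 bases before their starts, and before that of Ifi205, a gene of the interferon-inducible p200 family on the cDC1 list, are shown 5′ to 3′ on the strand of the gene, since dendritic cell factors are known to bind near such starts. They were taken from RefSeq (GRCm38.p6) at chr9:123862030-123862179, chr6:129408712-129408861 and chr1:174031756-174031905.
Xcr1: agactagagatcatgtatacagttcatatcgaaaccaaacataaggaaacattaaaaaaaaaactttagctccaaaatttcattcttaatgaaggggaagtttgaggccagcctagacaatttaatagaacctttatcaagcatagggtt
Clec9a: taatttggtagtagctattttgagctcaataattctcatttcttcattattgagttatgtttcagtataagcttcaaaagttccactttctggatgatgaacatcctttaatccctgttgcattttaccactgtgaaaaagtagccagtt
Ifi205: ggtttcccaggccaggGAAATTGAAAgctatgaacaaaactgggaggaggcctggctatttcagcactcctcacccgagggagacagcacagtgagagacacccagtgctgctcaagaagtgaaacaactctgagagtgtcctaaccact
The capitals mark GAAANNGAAA, an element of the kind that interferon regulatory factors such as Irf8 bind, and TGANTCA, an AP-1 type element of the kind that Batf3 and Jun proteins bind, was searched beside it on both strands in the 250 bases before and 50 after each start. Of 22 listed cDC1 genes, 18 had a promoter in the reference table, and 1 held GAAANNGAAA (Ifi205) and 1 held TGANTCA (Zbtb46). Of all 32851 promoters, 1131 (3.44%) held the first and 2565 (7.81%) the second. The matches describe letters in a window and are not binding sites.

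UMIs of both Xcr1 and Clec9a were present in 85, 23, 90 and 32 of the cDC1s of Vehicle, Vehicle-OVA, Ribavirin and Ribavirin-OVA. In Vehicle, Vehicle-OVA and Ribavirin, 27, 7 and 20 cells were chosen on Clec9a alone (22.5%, 18.4% and 16.7%), whereas Ribavirin-OVA had 0 of 37 such cells, which allows a share of up to 9.49% (exact Clopper-Pearson interval). Just inside the threshold, 20, 10, 21 and 7 cells had exactly 2 UMIs of the 2 genes, and just outside it 89, 26, 70 and 19 cells had 1. Another 77, 7, 50 and 8 cells had enough Xcr1 and Clec9a but 2 or more C1q UMIs, and 311, 62, 188 and 63 carried a UMI of the T cell, B cell, neutrophil, plasmacytoid or NK cell genes. A doublet score marked 1 cDC1, in Ribavirin, against 0.556% to 5.27% of all passing cells.

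The label was checked with 20 genes that did not choose the cells. These were Batf3, Flt3 and Zbtb46, which are the remaining given markers, and 17 others known from cDC1s, among them Irf8, Id2, Cadm1, Wdfy4, Tlr3, Itgae and Naaa. The median cDC1 had UMIs of 15, 12.5, 15 and 16 of the 20 genes. Cells with an Xcr1 UMI had medians of 16, 14, 16 and 16, while cells chosen on Clec9a alone had 7, 6 and 7.5 in the 3 libraries that held any. The gap remained at equal depth: after thinning every cell to 2000 UMIs the medians were 9, 11 and 9 with Xcr1 and 4, 5.5 and 3 without it in Vehicle, Vehicle-OVA and Ribavirin.

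The cells without Xcr1 also carried other genes. Cd209a was detected in 14 of 27, 1 of 7 and 10 of 20 of them, against 1 of 93, 0 of 31 and 4 of 100 of the cells with Xcr1 in the same libraries. Csf1r, the receptor for a macrophage growth factor, was detected in 15, 3 and 10 of the cells without Xcr1 and in 5, 1 and 10 of those with it. Irf8 stood at 506 CPM without and 1631 with Xcr1 in Vehicle, and at 391.7 and 1373 in Ribavirin. The cells with an Xcr1 UMI thus carried the cDC1 markers as the label says, whereas those chosen on Clec9a alone had fewer at the median. In Vehicle and Ribavirin the latter often held a Cd209a UMI. They were a mixture, with 1 to 16, 1 to 15 and 1 to 18 of the 20 genes in Vehicle, Vehicle-OVA and Ribavirin. For this reason the shares and several of the gene values below are also given for the cells with an Xcr1 UMI alone, a split made after the data were seen.

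**Figure D1:**
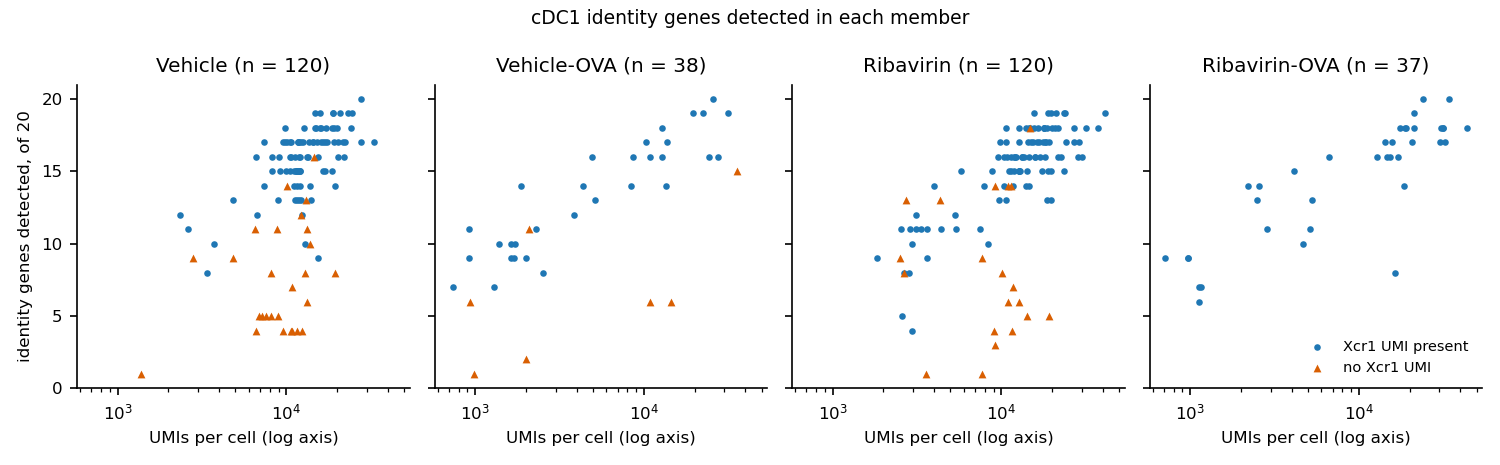
Each point is 1 cDC1, placed by its UMIs (x axis, log scale) and by how many of 20 cDC1 genes that did not choose it were detected (y axis), in panels for the 4 libraries. Blue circles had an Xcr1 UMI and orange triangles did not. At like depth most circles lie above the triangles, with medians of 16 and 7 genes in Vehicle and of 16 and 7.5 in Ribavirin, and Ribavirin-OVA has no triangle.

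To place the cDC1s among the dendritic cells, they were compared with 560 cells that had at least 2 UMIs of Cd209a, none of Xcr1 or Clec9a, and otherwise met the same limits (233, 42, 241 and 44 per library). Of the 17 cDC1 genes listed beside the given markers, 15 had enough UMIs to be compared. All 15 were at least 2-fold higher in cDC1s in all 4 libraries, against 2.03% of the 5423 genes compared. Since the rule selected cells on genes that travel with this set, the figures describe the cells and test nothing. Of the 3 given markers outside the rule, Batf3, the factor cDC1s are known to need, was 2-fold higher in all 4 libraries, while Flt3 and Zbtb46, which all conventional dendritic cells share, were not. All 5 cDC2 genes that could be compared, Cd209a among them by choice, were at least 2-fold lower in every library. The share of all genes lower in every library is not given here. Since Cd209a chose the other cells, this count likewise describes the cells and tests nothing.

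Irf8, the lineage factor of cDC1s and plasmacytoid dendritic cells, was at 1439, 1894, 1261 and 2458 CPM in cDC1s and at 95.8, 78.8, 77.6 and 36.7 CPM in Cd209a cells. Naaa, an acid amidase of lysosomes, stood at 1109, 1791, 1228 and 2612 CPM against 199, 251, 172 and 219, and Itgae, the CD103 integrin chain that binds E-cadherin of epithelium, at 360.1, 617, 428 and 543 against 60.4, 12.1, 42.1 and 35.1. Cadm1, an adhesion molecule, was at 112, 118, 143 and 202 CPM and was near 0 in Cd209a cells (3.33, 0, 0.809 and 0). The groups of values did not overlap for any of these genes.

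The 12 genes with the widest gap to Cd209a cells were Xcr1, Clec9a, Gcsam, Rab7b, Cd36, Tlr3, Cadm1, Snx22, Agpat3, Serpinb6b, Dnase1l3 and Irf8, of which the first 2 chose the cells. Cd36, a scavenger receptor that binds oxidised lipids and dead cells, was at 87.8, 54.5, 92.5 and 119 CPM in cDC1s and 0.416, 0, 2.02 and 3.19 in Cd209a cells. Dnase1l3, a secreted nuclease that degrades DNA of dead cells, was at 309, 144, 282 and 349 against 8.74, 8.08, 9.30 and 3.19. Agpat3, an acyltransferase of phospholipid synthesis, was at 79.5, 141, 94.3 and 162 against 2.50, 6.06, 2.02 and 4.79. Serpinb6b, an intracellular protease inhibitor, was at 154, 132, 163 and 288 against 5.41, 6.06, 2.43 and 1.60, but was detected in only 41, 11, 62 and 21 cDC1s. Agpat3 was also found in B cells, at 47.4, 42.7, 48.8 and 47.99 CPM, whereas the other 3 were at 8.70 CPM or less there.

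**Figure D2:**
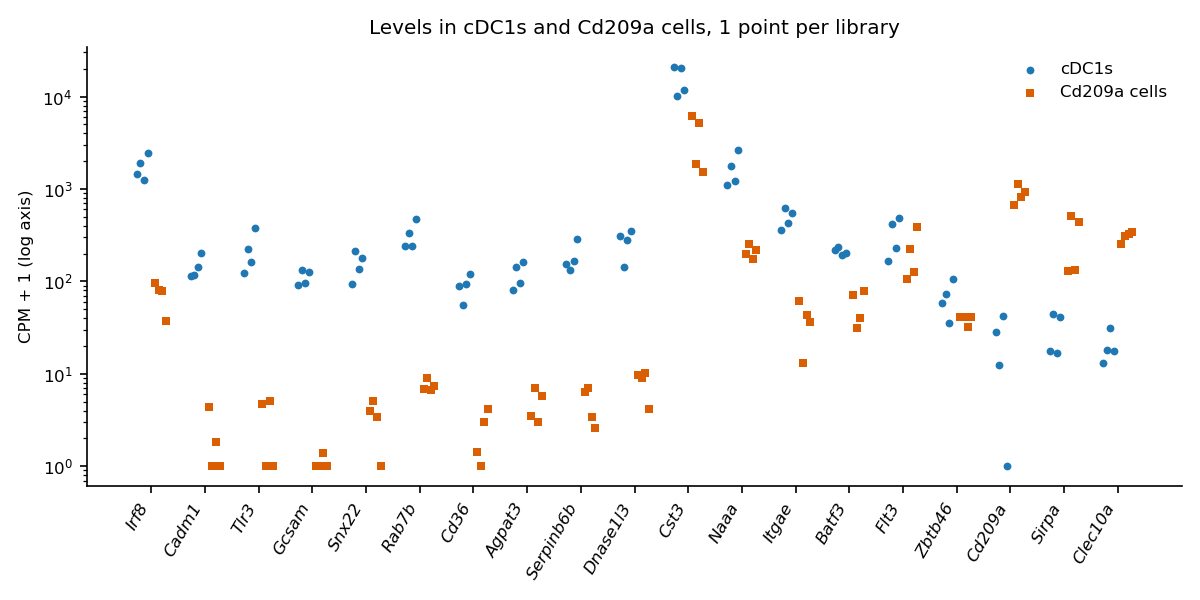
CPM plus 1 (y axis, log scale) of marker genes in cDC1s (blue circles) and Cd209a cells (orange squares), with 1 point per library and the libraries from left to right as named in the text. Irf8 to Itgae lie higher in cDC1s in all 4 libraries, Batf3 likewise, Flt3 and Zbtb46 overlap, and Cd209a, which chose the squares, Sirpa and Clec10a lie lower in cDC1s.

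Xcr1, Clec9a, Tlr3 and Naaa were set beside B cells as a view of free RNA, which droplets of any cell can pick up. The other markers are not given singly here. The 17 cDC1 genes listed beside the given markers summed to 28073, 20788, 27841 and 24382 CPM in cDC1s. In B cells they summed to 1513, 1998, 1442 and 1519 CPM, so the list was not absent there. In B cells (at least 2 UMIs of Cd79a), which should lack Xcr1 and Clec9a, 0.102% to 1.12% of cells had an Xcr1 UMI and 0.317% to 1.26% a Clec9a UMI. The group held plasma cell markers (Jchain, Mzb1 and Xbp1) at 102341, 30448, 84269 and 38706 CPM. Its B cell markers summed to 1447, 1913, 1703 and 1486 CPM, so that B cells throughout include antibody-secreting cells. Xcr1 was detected in 77.5, 81.6, 83.3 and 100% of cDC1s and Clec9a in 93.3, 78.9, 91.7 and 86.5%, as the rule requires of at least 1 of them. Tlr3 was detected in 61.7, 42.1, 63.3 and 72.97% of cDC1s against 0.306, 1.26, 0.475 and 0.373% of B cells, and Naaa in 96.7, 92.1, 93.3 and 100% against 4.99, 8.52, 6.66 and 12.7%. Mature migratory dendritic cells (at least 3 UMIs of Ccr7 and Fscn1) held Irf8 at 311, 192, 331 and 118 CPM and Naaa at 42.8, 37.96, 57.7 and 14.3, below the cDC1s in every library. Plasmacytoid cells, which use Irf8 too, held it at 2601, 3451, 2231 and 3543 CPM but Naaa at only 3.64, 8.76, 7.78 and 13.1.

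The share of cDC1s among all cells differed between the libraries. Without OVA, Vehicle held 0.466% (0.387 to 0.557) and Ribavirin 0.592% (0.491 to 0.707), by exact Clopper-Pearson intervals. With OVA, Vehicle-OVA held 0.217% (0.154 to 0.298) and Ribavirin-OVA 0.420% (0.296 to 0.578). With OVA the share was 0.466 times that of Vehicle (0.314 to 0.676) under vehicle, and 0.709 times that of Ribavirin (0.477 to 1.03) under ribavirin. Ribavirin stood at 1.27 times Vehicle (0.977 to 1.65) and Ribavirin-OVA at 1.93 times Vehicle-OVA (1.20 to 3.12). The intervals for counting error excluded 1 in the first and the last of these 4 ratios. Over 11 alternative settings, Vehicle-OVA over Vehicle ranged from 0.321 to 0.938 with an interval that excluded 1 in 10 of them, and Ribavirin-OVA over Vehicle-OVA from 1.07 to 3.43, likewise in 10. Ribavirin over Vehicle ranged from 1.14 to 1.47 and its interval excluded 1 in 5 of the 11, and Ribavirin-OVA over Ribavirin ranged from 0.611 to 0.925 and excluded it in 4. Counted with the cells that had an Xcr1 UMI alone, the 4 ratios in the same order as above were 0.490 (0.315 to 0.743), 0.851 (0.567 to 1.25), 1.36 (1.02 to 1.83) and 2.37 (1.43 to 3.95).

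The ratios depended on the cells they were counted among. Neutrophils (at least 2 UMIs of S100a8 and S100a9 and 1 of Csf3r or Cxcr2) were many in Vehicle-OVA, and with cells of that kind left out of both counts the shares were 0.709%, 0.665%, 1.04% and 0.713%. Some cDC1s met this definition themselves and were left out, so that 111 of 120, 28 of 38, 108 of 120 and 34 of 37 remained. The largest part was lost in Vehicle-OVA, so the change is not one of the denominator alone. Vehicle-OVA then stood at 0.938 times Vehicle (0.596 to 1.43) and Ribavirin-OVA at 1.07 times Vehicle-OVA (0.631 to 1.84), so that neither interval excluded 1, whereas Ribavirin stood at 1.47 times Vehicle (1.12 to 1.93), with an interval that did. With every cell thinned to 2000 UMIs, Ribavirin-OVA stood at 3.43 times Vehicle-OVA (1.84 to 6.60) and Ribavirin at 1.43 times Vehicle (1.03 to 1.99). Of cDC1s and Cd209a cells counted together, cDC1s made up 33.99% (29.1 to 39.2), 47.5% (36.2 to 59.0), 33.2% (28.4 to 38.4) and 45.7% (34.6 to 57.1), higher in both OVA libraries than in those without, with intervals that overlapped. Whether fewer cDC1s or more of other cells lay behind a lower share cannot be told apart from shares.

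**Figure D3:**
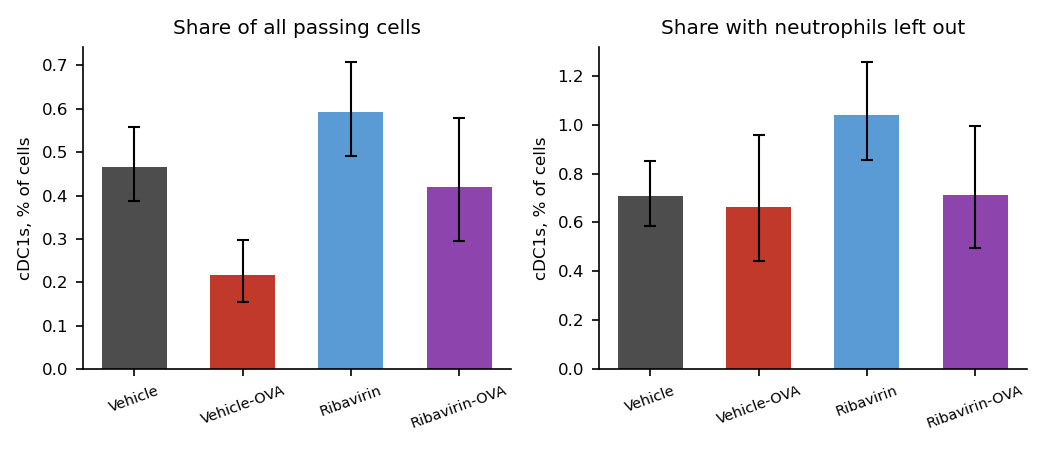
Bars show cDC1s as a percentage of all passing cells (left) and of passing cells without neutrophils (right) in the 4 libraries, and error bars are exact 95% intervals for counting error. On the right, cDC1s that met the definition of neutrophils were left out too, which left 111, 28, 108 and 34. On the left Vehicle-OVA, at 0.217%, lies below the other libraries, and on the right it lies at 0.665%, with an interval that overlaps those of all the other libraries.

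Among themselves the libraries differed most with OVA. Of 4482 genes with at least 50 UMIs over the pair, 455 (10.2%) were at least 2-fold higher and 168 (3.75%) at least 2-fold lower in cDC1s of Vehicle-OVA than in those of Vehicle. Of 4885 genes, 518 (10.6%) were higher and 211 (4.32%) lower in Ribavirin-OVA than in Ribavirin. Ribavirin differed from Vehicle in fewer genes, 73 higher (1.26%) and 25 lower (0.433%) of 5779, and Ribavirin-OVA from Vehicle-OVA in 87 higher (3.02%) and 74 lower (2.57%) of 2877. These shares are the background for every count of listed genes below, and with 1 library per group they hold the spread between mice as well as any difference between treatments. All folds are on the scale of log2 (CPM + 1).

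The median of all genes was itself shifted with OVA, by 0.22 and 0.29 on the log2 scale, against -0.04 and -0.03 between drug and vehicle. After subtracting it, 230 genes were higher and 291 lower in the vehicle pair, and 177 higher and 432 lower in the ribavirin pair, so that the excess of higher genes turned into an excess of lower genes. The 80 ribosomal protein genes measured went the other way, with medians of -0.65 and -0.75 with OVA, and the log2 ratio went with transcript length across genes (Spearman rho 0.39 and 0.46 over 4477 and 4879 genes, given as a description). The part of depth and RNA quality in the OVA differences was not tested. Values between 0.22 or 0.29 and 0 are therefore below the typical gene of their pair.

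Most cDC1 genes themselves stayed within 2-fold with OVA. Of 15 listed identity genes that could be compared, 2 were 2-fold higher and 1 lower in Vehicle-OVA (median 0.60), and 4 higher and 0 lower in Ribavirin-OVA (median 0.60), above the medians of all genes of 0.22 and 0.29. After subtraction of those the medians were 0.38 and 0.31, and the counts became 1 higher and 1 lower in the vehicle pair and 1 and 1 in the ribavirin pair. In the cells with an Xcr1 UMI they were 2 and 1, and 2 and 0. Btla, an inhibitory receptor that binds HVEM, was at 140.3, 347, 148 and 374 CPM, higher in both OVA libraries. Flt3, the receptor of the growth factor that maintains cDC1s, was at 167, 422, 228 and 490.1 CPM. Its OVA ratio was 2.53-fold (2.05 to 3.11) in the vehicle pair and 2.15-fold (1.83 to 2.52) in the ribavirin pair.

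Tlr3, which senses double-stranded RNA taken up with dead cells, was at 123, 224, 161 and 373 CPM, and was detected in 74, 16, 76 and 27 cells. Cst3, the cystatin C gene and a protease inhibitor typical of dendritic cells, went the other way, with 20904, 10266, 20496 and 11702 CPM. Its OVA ratios were 0.491-fold (0.474 to 0.508) and 0.571-fold (0.556 to 0.586), so that the OVA libraries lay at about the same level and below the libraries without OVA. In Cd209a cells (6091, 1849, 5162 and 1533 CPM) and B cells (994, 448, 850.5 and 362 CPM) Cst3 was likewise lower in both OVA libraries. Batf3 differed little, with 215, 235, 190.4 and 200.1 CPM. Zbtb46, a factor of conventional dendritic cells, had 57.7, 71.8, 34.3 and 106 CPM from 90, 25, 56 and 58 UMIs.

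Antigen presentation genes were mostly even across libraries. Of the genes for MHC class I and cross-presentation, 0 of 19 passed 2-fold in the vehicle pair and 0 of 20 in the ribavirin pair, in either direction, with medians of -0.17 and 0.20, below the median of all genes in both pairs. Tap1, which carries peptides into the endoplasmic reticulum, was at 276, 390.3, 261 and 507 CPM, and Tapbp, the tapasin that holds it to MHC class I, at 244, 485, 273 and 508. Wdfy4, which is needed for cross-presentation of cell-bound antigen, was at 548, 939, 658 and 1162 CPM and above its level in Cd209a cells (159, 200, 136 and 476). These 3 genes were higher in both OVA libraries, by 1.42 to 1.99 times.

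Rab43, another gene of cross-presentation, was at 50.6, 83.2, 61.2 and 116 CPM. The immunoproteasome subunits went the other way, Psmb8 with 1289.8, 818, 1042 and 608 CPM and Psmb9 with 682, 539.6, 718 and 485. H2-K1 was at 1315, 1171, 1342 and 1467 CPM and H2-D1 at 1633, 1056, 1716 and 1292, genes that may share reads with other class I genes. Of the 20 class I genes, 1 was 2-fold higher in cDC1s than in Cd209a cells in all 4 libraries and 1 was lower.

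MHC class II genes were present at levels close to those of Cd209a cells. H2-Ab1 was at 9412, 7299, 9328 and 8218 CPM in cDC1s and 8905, 6425, 8280.5 and 7731 in Cd209a cells, and Cd74, the invariant chain, at 16567, 12829, 15852 and 14692 against 17053, 12403, 16411 and 14015. In the vehicle pair 0 of 13 class II genes passed 2-fold and in the ribavirin pair 1 of 14, Lgmn, an endosomal protease, which was higher (21.8, 40.2, 22.04 and 55.1 CPM). The medians were -0.23 and -0.09, below the median of all genes in both pairs. H2-Eb1 was at 7349, 4842, 7541 and 5587 CPM, lower in both OVA libraries than in their partners.

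Of the sensors of nucleic acids and microbes, 2 of 9 were 2-fold higher with OVA in the vehicle pair and 0 of 9 in the ribavirin pair, and none was lower. The higher ones were Nlrp3 and Tlr12. Tlr11 and Tlr12, which sense profilin of protozoa, were at 42.9, 45.9, 47.8 and 45.9 CPM and 37.8, 80.4, 40.4 and 69.8 CPM, against at most 7.91 and 4.79 in Cd209a cells. Nlrp3, an inflammasome sensor, was at 33.96, 109, 47.1 and 47.7 CPM and thus highest in Vehicle-OVA, where it was also at 75.7 CPM in B cells, against 6.17 to 13.1 in B cells of the other libraries. Unc93b1, which brings endosomal Toll-like receptors to their place, was at 359, 439, 397 and 518 CPM. Tmem173, the STING gene, was at 78.2, 112, 77.8 and 53.2 CPM.

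Of the costimulation and checkpoint genes, Cd274 (PD-L1) alone passed 2-fold with OVA, and only in the vehicle pair, at 42.9, 181, 44.1 and 77.1 CPM. Its ratio was 4.21-fold (2.94 to 6.03) in the vehicle pair and 1.75-fold (1.17 to 2.59) in the ribavirin pair, and 1 cell gave 36.5% of its UMIs in Vehicle-OVA. Cd86, a ligand of CD28, was at 197, 141, 167 and 187 CPM, and Cd40 at 32.7, 25.8, 26.9 and 44.1. Havcr2 (TIM-3), known on cDC1s, was at 166, 215, 171 and 316 CPM, above the 76.6, 131, 74.8 and 112 of Cd209a cells. Slamf7 was at 276, 144, 271 and 200.1 CPM and lower in both OVA libraries.

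Genes for uptake of dead cells and for stress granules were listed because the study of these mice concerns both. With OVA, 2 of 9 were 2-fold higher in the vehicle pair and 3 of 9 in the ribavirin pair, and none was lower (medians 0.59 and 0.73). With the median of all genes subtracted, 1 and 0 were higher, and in the cells with an Xcr1 UMI 2 and 1, so that the count of the ribavirin pair depended on both. G3bp1, the core protein of stress granules, was at 164, 261, 155 and 257 CPM, with OVA ratios of 1.59-fold (1.24 to 2.03) and 1.66-fold (1.34 to 2.05). It was higher with OVA in Cd209a cells (141, 281, 127 and 259 CPM) and B cells (96.2, 194, 73.6 and 198 CPM) as well. Tia1, another stress granule protein, was at 31.4, 80.4, 31.8 and 66.1 CPM and Caprin1, a partner of G3bp1, at 167, 253, 187 and 321. Itgav, an integrin chain that binds dead cells through bridging proteins, was at 21.1, 48.8, 21.4 and 45.9 CPM.

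Lrp1, an uptake receptor, had only 10, 5, 14 and 14 UMIs in cDC1s (6.41, 14.4, 8.57 and 25.7 CPM), too few to compare, against 44.6, 70.7, 58.6 and 47.9 CPM in Cd209a cells. Axl, a receptor for dead cells, had 18, 5, 10 and 2 UMIs. Both genes lay below the number of UMIs required for a ratio in every pair, so no ratio was taken for them. Whether either gene differed between libraries was not tested, and no direction is read from so few UMIs.

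Cytokine and chemokine genes stood far apart between the 2 OVA libraries. In the vehicle pair 3 of 10 were 2-fold higher with OVA and 3 lower (median 0.36), and in the ribavirin pair 0 of 10 were higher and 4 lower (median -0.78). The higher genes were Cxcl2, Ccl3 and Ccl4, the lower ones of the vehicle pair Cxcl9, Cxcl10 and Ccl17, and those of the ribavirin pair Il1b, Ccl4, Ccl5 and Ccl17. Cxcl2, which attracts neutrophils, was at 76.3, 1197, 143 and 82.6 CPM in 34, 36, 61 and 15 cells. Ccl3 was at 26.3, 367, 28.8 and 16.5 CPM and Ccl4, like Ccl3 a chemokine that attracts leukocytes, at 309, 786, 464 and 158. Vehicle-OVA was the highest library for all 3 genes.

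The same library was also highest for these 3 genes in B cells, which held Cxcl2 at 62.4, 899, 168 and 73.04 CPM, Ccl3 at 21.9, 297, 22.9 and 27.7 and Ccl4 at 41.6, 376, 47.3 and 26.9. Of the 5 neutrophil markers, Cxcr2 was at 0 by the rule, and the others summed to 189.7, 786, 311 and 251 CPM in cDC1s, highest in Vehicle-OVA, and to 371, 1298, 1268 and 339.9 in B cells. The marker sum of Ribavirin lay near that of Vehicle-OVA in B cells and below it in cDC1s. The part of neutrophil RNA in the chemokine values was not tested. In the cells with an Xcr1 UMI the log2 ratios of Cxcl2 and Ccl3 in the vehicle pair were 4.19 and 3.58, against 3.95 and 3.76 over all cDC1s.

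Il1b was at 839, 1521, 735 and 359.8 CPM, with the highest value in Vehicle-OVA and the lowest in Ribavirin-OVA. Cxcl9, which brings Cxcr3-bearing T cells to dendritic cells, was at 573, 66.01, 301 and 303 CPM in 55, 6, 41 and 10 cells, with an OVA ratio of 0.115-fold (0.0727 to 0.174) in the vehicle pair and 1.01-fold (0.838 to 1.20) in the ribavirin pair. Cxcl10 was at 74.3, 5.74, 18.98 and 18.4 CPM in 19, 2, 18 and 3 cells. Both were highest in Vehicle and lowest in Vehicle-OVA, with Ribavirin and Ribavirin-OVA close to each other in between, and 1 cell gave 56.5% of the Cxcl9 UMIs in Vehicle-OVA. Ccl5 was at 210.2, 109, 123 and 3.67 CPM, but 59.1%, 94.7% and 79.1% of its UMIs came from 1 cell each in the first 3 libraries.

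Il12b, the p40 chain of IL-12, was found in 6, 1, 8 and 1 cells, from 22, 3, 34 and 6 UMIs, and in 0 of the Cd209a cells of all 4 libraries. Il12a, the other chain, had 0 UMIs in all 4 libraries, which with a limit of 3 UMIs allows no statement on its level. Cxcl16, a scavenger and chemokine, was at 261, 310, 228 and 323 CPM and was even across libraries. Tgfb1 was at 121, 169, 111 and 189 CPM.

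Interferon-stimulated genes lay on different sides of the typical gene in the 2 OVA pairs. In the vehicle pair 0 of 15 genes were 2-fold higher and 2 lower, with a median of -0.72. In the ribavirin pair 5 of 15 were higher and 0 lower, with a median of 0.97, against 0.22 and 0.29 for all genes. In the cells with an Xcr1 UMI the counts were 2 higher and 2 lower (median -0.10) in the vehicle pair and 6 higher and 0 lower (median 0.92) in the ribavirin pair. Without the cells chosen on Clec9a alone the median of the vehicle pair thus lay near 0 and that of the ribavirin pair stayed close to its value. With the median of all genes subtracted, the medians were -0.94 and 0.67, with 6 genes lower in the vehicle pair and 2 higher in the ribavirin pair. The difference between the pairs was not tested.

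Irf1, a factor induced by interferon-gamma, was at 126, 63.1, 90.6 and 178 CPM in 69, 13, 62 and 20 cells, and Irgm1, an immunity-related GTPase, at 71.8, 43.1, 52.05 and 93.6 in 55, 11, 47 and 16 cells. The same order, Ribavirin-OVA above Vehicle-OVA, held for both genes, which were found in many cells. Irf7, a factor of the type I interferon response, was at 75.6, 103, 107 and 240.5 CPM, with 39.7% of its Ribavirin-OVA UMIs from 1 cell.

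Gbp2, a guanylate-binding protein, was at 126, 31.6, 41.02 and 88.1 CPM in 40, 6, 32 and 6 cells, and Iigp1, a GTPase that acts on vacuoles of parasites, at 46.8, 20.1, 39.8 and 88.1 in 22, 4, 16 and 5 cells. In Ribavirin-OVA 1 cell each gave 54.2% of the Gbp2 UMIs and 64.6% of those of Iigp1. Without the cell with the most UMIs of the gene in each library, the log2 ratios in the ribavirin pair were 0.22 and 0.15, with intervals that no longer excluded a ratio of 1. Isg15 was at 152, 91.8, 80.2 and 103 CPM. Ribavirin without OVA had 2 of 22 genes higher and 3 lower than Vehicle (median -0.48), and Ribavirin-OVA had 6 of 9 higher and 0 lower than Vehicle-OVA (median 1.20). Summed over the 25 genes, B cells held 918, 939, 925 and 875 CPM and Cd209a cells 1905, 1913, 2015 and 1550.1, where Ribavirin-OVA was the lowest library in both. The cDC1s held 1430.2, 1045, 1004 and 1887 CPM, where Ribavirin-OVA was the highest library. Mature dendritic cells held 2258, 2258, 2488 and 2541 CPM, where it was the highest as well.

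**Figure D4:**
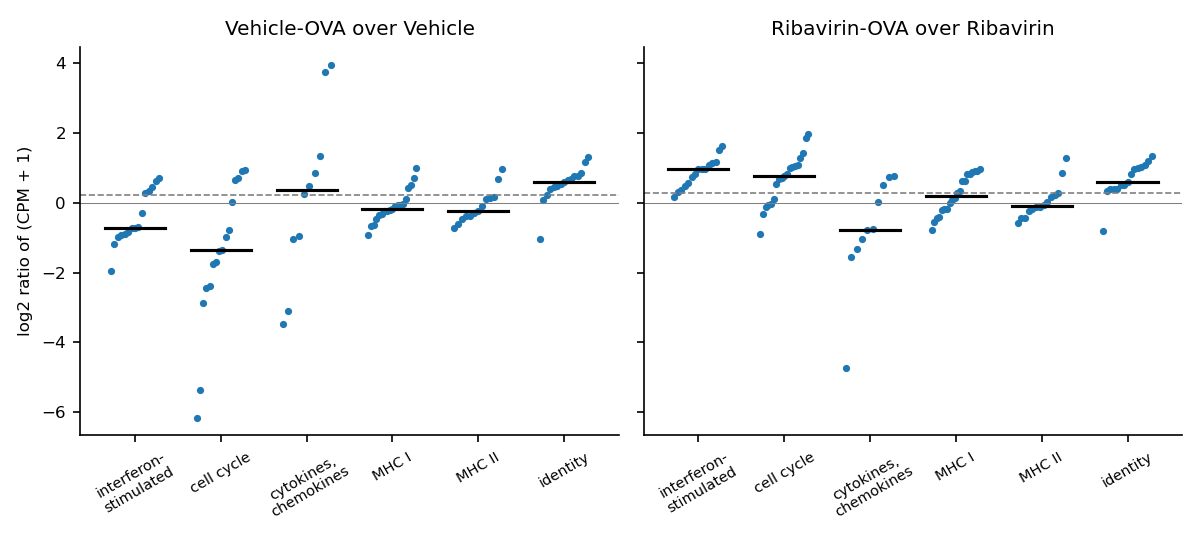
Each point is a listed gene with at least 50 UMIs over the pair, placed by its log2 ratio of CPM plus 1 with OVA over without, in cDC1s under vehicle (left) and under ribavirin (right). Thick bars are the list's median, the dashed line the median of all genes (0.22 and 0.29). The medians of interferon-stimulated and cell cycle genes lie below 0 on the left and above the dashed line on the right.

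Cell cycle genes differed likewise. In the vehicle pair 9 of 16 were 2-fold lower with OVA and 0 higher (median -1.36), and in the ribavirin pair 8 of 19 were higher and 0 lower (median 0.76). With an Xcr1 UMI the counts were 10 lower and 0 higher, and 5 higher and 1 lower. With the median of all genes subtracted, the medians were -1.58 and 0.47, with 10 lower and 0 higher in the vehicle pair and 3 higher and 1 lower in the ribavirin pair. The lower genes of Vehicle-OVA were Mki67, Top2a, Birc5, Cdk1, Cenpa, Cenpf, Ube2c, 2810417H13Rik and Hist1h1b, most of them best known from mitosis. Top2a, which untangles chromosomes, was at 110.2, 20.1, 96.7 and 198 CPM, Birc5, the survivin gene, at 66.6, 11.5, 61.8 and 66.1, and Cenpa, the histone of centromeres, at 48.7, 5.74, 46.5 and 36.7.

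Cenpf had 0 UMIs in Vehicle-OVA, which against the limit of 3 UMIs is at least 4.69-fold lower than Vehicle, and Hist1h1b, a linker histone, had 0 as well (at least 8.19-fold lower). Pcna, Mcm5 and Mcm6, which act in DNA replication, stood otherwise, though 0 listed cell cycle genes were 2-fold higher in the vehicle pair. Pcna, the sliding clamp, was at 94.2, 178, 64.9 and 139.5 CPM, Mcm5, a part of the replicative helicase, at 44.9, 74.6, 21.4 and 80.8, and Mcm6 at 51.9, 100.5, 34.3 and 71.6. They were higher in both OVA libraries than in their partner without OVA, by 0.72 to 1.87 on the log2 scale.

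These sums come from few cells. Mki67, the Ki-67 gene, was detected in 26, 6, 27 and 8 cDC1s, and 1 cell gave 27.3% of its UMIs in Vehicle-OVA and 32.4% in Ribavirin-OVA. Counted as cells with at least 3 UMIs of 22 cell cycle genes after thinning to 2000 UMIs, cycling cDC1s made up 19.3% (12.7 to 27.6) of 119 cells, 20.8% (7.13 to 42.2) of 24, 11.8% (6.58 to 19.0) of 119 and 22.6% (9.59 to 41.1) of 31. Without thinning the shares were 45.8%, 42.1%, 36.7% and 56.8%. The 4 intervals overlapped, so that no difference in the share of cycling cells was detectable at this depth.

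Cd209a cells counted as cycling at 7.33% (4.33 to 11.5), 2.56% (0.065 to 13.5), 5.83% (3.23 to 9.59) and 9.09% (2.53 to 21.7) by the same count. These shares were lower than in cDC1s in every library, but the intervals were apart only in Vehicle and overlapped in the other 3. The share was also lower in mature dendritic cells (3.85%, 4.48%, 6.43% and 15.2%). B cells, which include dividing ones, had 9.28%, 18.1%, 11.3% and 31.2%. Free RNA of dividing cells enters such counts, and its share was not measured apart.

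Apart from the lists, the 8 genes highest with OVA in both pairs were Slpi, Slc16a6, Tnfrsf1b, Hic1, Ndrg1, Plk3, Rbm38 and Ctsd. Tnfrsf1b, the TNF receptor 2, was at 16.02, 94.7, 17.8 and 64.2 CPM in 22, 15, 24 and 13 cells, with ratios of 5.91-fold (3.41 to 10.4) and 3.62-fold (2.15 to 6.14). Hic1, a transcriptional repressor, was at 28.8, 118, 20.2 and 71.6 CPM in 27, 12, 21 and 14 cells, with ratios of 4.08-fold (2.61 to 6.37) and 3.54-fold (2.17 to 5.81). Hic1 was near 0 in B cells (1.14, 1.74, 0.509 and 1.05 CPM) and even in Cd209a cells (12.9, 10.1, 12.9 and 15.96 CPM), with no difference of that size in either.

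Ndrg1, a gene that answers to hypoxia and differentiation, was at 39.1, 169, 50.2 and 162 CPM, against 19.6, 18.2, 19.01 and 49.5 in Cd209a cells. Plk3, a kinase of the stress response, was at 19.9, 77.5, 22.04 and 67.9 CPM, Rbm38, an RNA-binding protein, at 20.5, 60.3, 14.1 and 51.4 and Ctsd, the lysosomal protease cathepsin D, at 18.6, 74.6, 26.9 and 75.3. Slc16a6, of the monocarboxylate transporter family, was at 27.6, 132, 25.1 and 95.4 CPM. The genes beside Slpi kept ratios above 2 in the cells with an Xcr1 UMI, on the log2 scale 1.36 to 2.88 in the vehicle pair and 1.41 to 2.12 in the ribavirin pair.

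Slpi, a secreted protease inhibitor, was at 12.2, 112, 12.9 and 64.2 CPM in cDC1s, but at 5701, 22090.4, 5446 and 16575 CPM in B cells. Its level in cDC1s went with that in B cells, being higher in both OVA libraries, and the part of free RNA in it was not tested.

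The 8 genes lowest with OVA in both pairs were Obp1a, Mgl2, Hist1h1e, S100a10, N6amt2, Ubb, Ramp1 and Cmc1. Ubb, a ubiquitin gene that may share reads with other ubiquitin genes, was at 1619, 629, 1568 and 564 CPM and was detected in 120, 32, 120 and 31 cells, with ratios of 0.388-fold (0.337 to 0.446) and 0.359-fold (0.318 to 0.405). It was lower with OVA in Cd209a cells (1512, 481, 1569 and 696 CPM) and B cells (2303, 755, 2583 and 772 CPM) as well. Ramp1, the partner of the receptor for the neuropeptide CGRP, was at 79.5, 20.1, 71.6 and 27.5 CPM in 65, 3, 52 and 8 cells. Cmc1, a mitochondrial protein, was at 71.8, 22.96, 71.6 and 27.5 CPM and N6amt2 at 31.4, 8.61, 31.8 and 11.01.

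Mgl2, a lectin of cDC2s, was at 66.00, 17.2, 71.03 and 12.8 CPM in 14, 2, 22 and 3 cells, and S100a10, a partner of annexin A2, at 163, 43.1, 108 and 31.2 in 55, 5, 38 and 7 cells. Both genes were far higher in Cd209a cells, with 391, 695, 307 and 935 and 669, 416, 718 and 265 CPM. In the cells with an Xcr1 UMI the log2 ratios of S100a10 were -1.36 and -0.20, against -1.90 and -1.76 over all cDC1s, so that in the ribavirin pair its difference was small without the cells chosen on Clec9a alone. Hist1h1e, a linker histone, was at 51.3, 2.87, 52.05 and 14.7 CPM, from 1 UMI in Vehicle-OVA.

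Receptors through which cDC1s receive signals were mostly within 2-fold. With OVA, 1 of 17 were higher and 2 lower in the vehicle pair, and 1 of 16 higher and 0 lower in the ribavirin pair (medians 0.12 and 0.44). Cxcr4, which retains cells in tissues rich in Cxcl12, was the higher gene in both, at 16.7, 80.4, 16.5 and 45.9 CPM, and was higher with OVA in B cells too (101, 483, 144 and 385 CPM). Cxcr3, the receptor of Cxcl9 and Cxcl10, was at 47.4, 2.87, 42.9 and 31.2 CPM in 44, 1, 41 and 9 cells and thus nearly lacking in Vehicle-OVA, where 1 UMI was found. Against Vehicle this is a ratio of 0.0605-fold (0.00151 to 0.348). In Cd209a cells it was at 2.08, 0, 0.809 and 1.60 CPM.

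Kit was at 131, 129, 139 and 139.5 CPM, with little difference between libraries, and Ifngr1, which takes up the interferon-gamma signal, at 312, 339, 277 and 371. Il4ra, the receptor chain shared by IL-4 and IL-13, was at 69.8, 118, 77.8 and 105 CPM. Of the IL-4 and IL-13 response genes, 1 of 3 were higher in the vehicle pair, Tgm2, and 1 of 4 in the ribavirin pair, Chil3. Most of the Tgm2 UMIs of Vehicle-OVA came from 1 cell, as given below.

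Chil3, a chitinase-like gene, was at 0.641, 0, 1.84 and 114 CPM, but 1 cell gave 80.6% of it in Ribavirin-OVA. Ccl24, a chemokine of alternatively activated macrophages, was at 0, 11.5, 0 and 62.4 CPM, with 88.2% from 1 cell, and against the limit of 3 UMIs was at least 33.98-fold higher in Ribavirin-OVA than in Ribavirin. In Cd209a cells Ccl24 was at 0.833, 794, 2.83 and 459.8 CPM. Values of these genes in cDC1s rest on a few cells.

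Of the transcription factors of dendritic cell development, 2 of 12 were 2-fold higher in the vehicle pair and 1 of 12 in the ribavirin pair. Ikzf1 (Ikaros) was at 62.8, 207, 67.97 and 145 CPM and was higher in both. Nfil3, which acts before Irf8 in cDC1 development, was at 61.5, 121, 53.9 and 103 CPM and Bcl6 at 86.5, 121, 91.8 and 149, each within 2-fold. Bcl11a, a factor of plasmacytoid cells, was at 65.4, 100.5, 70.4 and 33.04 CPM and was 2-fold lower in the ribavirin pair. Zeb2, a factor that opposes the cDC1 fate, was at 35.2, 155, 47.1 and 31.2 CPM, found in only 23, 8, 18 and 4 cells, and was at 201, 444, 205 and 332 CPM in Cd209a cells.

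Of the glycolysis and hypoxia genes, 2 of 9 were 2-fold higher in the vehicle pair (median 0.71) and 0 of 9 in the ribavirin pair (median 0.40), namely Hk2, a hexokinase, at 69.8, 189, 77.8 and 114 CPM, and Hif1a, the hypoxia factor, at 94.8, 198, 97.4 and 128. Genes of the immediate early response, which digestion of tissue can raise, were mostly even, with 1 of 16 higher and 1 lower in the vehicle pair and 1 higher and 0 lower in the ribavirin pair. Fos was at 1782, 1154, 2199 and 2140.3 CPM and Ier3 at 57.7, 390.3, 93.7 and 191.

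The 5 genes highest with ribavirin in both pairs were Obp1a, Obp2a, Obp1b, Bpifa1 and Cyp26b1. The first 3 are odorant-binding proteins and Bpifa1 is a secreted protein, products of glands and epithelium of the nose. Obp1a was at 36.5, 5.74, 1019 and 235 CPM in cDC1s, at 44.6, 6.06, 1017 and 243 in Cd209a cells and at 75.9, 15.98, 1009.7 and 405 in B cells. Obp1b was at 30.1, 22.96, 814 and 286 in cDC1s and 51.98, 19.8, 791 and 419.5 in B cells. In the libraries with ribavirin the levels of both genes in cDC1s were thus close to those in B cells or below them, and Obp1a and Obp1b may share reads.

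Obp2a was at 4.49, 5.74, 238 and 93.6 CPM in cDC1s and 17.02, 5.21, 9054 and 113 in B cells, and Bpifa1 at 8.33, 51.7, 47.8 and 147 and 12.7, 37.2, 90.9 and 294. All 4 genes were thus higher with ribavirin in cells of unlike kinds, and the part of free RNA in them was not tested.

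Cyp26b1, an enzyme that degrades retinoic acid, differed from these. It was at 14.1, 48.8, 42.9 and 105 CPM in cDC1s, in 9, 3, 18 and 11 cells, while Cd209a cells of all 4 libraries had 0 UMIs and B cells 0, 0.695, 0.170 and 2.37 CPM. Its ratios were 3.04-fold (1.86 to 5.16) for Ribavirin over Vehicle and 2.14-fold (1.23 to 3.93) for Ribavirin-OVA over Vehicle-OVA. In Vehicle-OVA 3 cells held it and 1 of them gave 70.6% of the UMIs, and in Ribavirin-OVA 1 cell gave 36.8%.

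**Figure D5:**
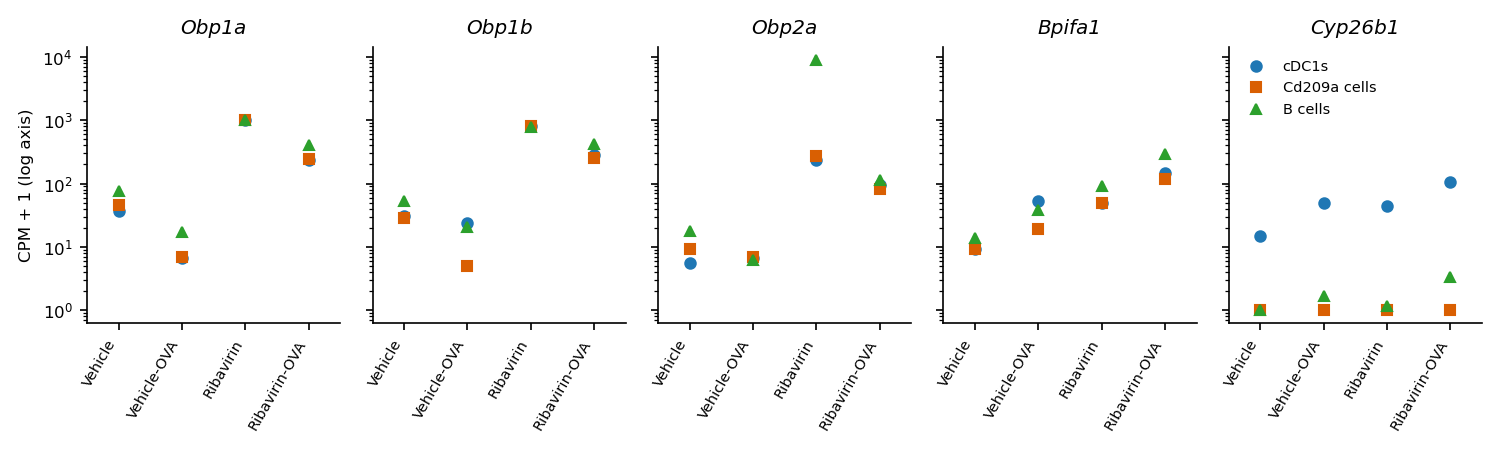
CPM plus 1 (y axis, log scale) of the 5 genes highest with ribavirin in both pairs, in cDC1s (blue circles), Cd209a cells (orange squares) and B cells (green triangles) of the 4 libraries. For Obp1a, Obp1b, Obp2a and Bpifa1 all 3 kinds of cell are higher with ribavirin, with Obp2a in B cells of Ribavirin far above the rest, whereas Cyp26b1 stands at 14.1 to 105 CPM in cDC1s and at or near 0 in the other cells.

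The 5 genes lowest with ribavirin in both pairs were Tgm2, Ifitm1, S100a6, Ptgs2 and Cdkn1a. Ifitm1, a membrane protein against viruses that may share reads with its relatives, was at 407, 1274, 211 and 58.7 CPM in cDC1s, with 63.3% of the Vehicle-OVA UMIs from 1 cell. S100a6, a calcium-binding protein, was at 600.4, 399, 317 and 189 CPM, and Cdkn1a, the p21 inhibitor of the cell cycle, at 127, 195, 74.7 and 110.1. Both were higher in Cd209a cells, at 2392, 2277, 2417 and 1976 and 468, 576, 511 and 512 CPM. Tgm2, a transglutaminase, was at 48.7, 152, 23.9 and 25.7 CPM and Ptgs2, the cyclooxygenase 2 gene, at 37.8, 221, 19.6 and 38.5, with 62.3% and 64.9% of the Vehicle-OVA UMIs from 1 cell each. In the cells with an Xcr1 UMI, Tgm2 and Ptgs2 were no longer lower in Ribavirin than in Vehicle (log2 0.38 and 0.09), nor Cdkn1a in Ribavirin-OVA than in Vehicle-OVA.

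The cDC1s also held markers of other cells. Of 8 macrophage markers, 3 of them C1q genes that the rule limits, the sum was 692, 189, 592 and 914 CPM, with a UMI in 113 of 120, 18 of 38, 106 of 120 and 27 of 37 cDC1s. Neutrophil markers, given above, had a UMI in 106, 36, 116 and 30 of them, plasma cell markers (Jchain, Mzb1 and Xbp1, the last also known from dendritic cells) in 111, 23, 103 and 29, and monocyte markers in 86, 8, 77 and 16. Their sums were 259, 238, 213 and 323 CPM for plasma cell and 399.8, 215, 317 and 343 for monocyte markers. The part of other cells or free RNA in these values was not tested. T cell markers summed to 12.2, 2.87, 3.06 and 0 CPM, B cell markers to 3.20, 0, 4.29 and 5.51 and NK cell markers to 19.2, 0, 12.9 and 5.51, where the genes of the rule were at 0 by choice. Of the macrophage markers Lyz2 made up most, at 643, 164, 559.6 and 868 CPM, with 77.2% of its Ribavirin-OVA UMIs from 1 cell, which had 8 of the 20 identity genes and 16 UMIs of Csf1r. Without the largest cell of each library Lyz2 was at 563, 103.7, 473 and 204 CPM, lower with OVA in both pairs. Ccr2, found on monocytes and on some dendritic cells, was at 332, 175, 242 and 275 CPM, and the epithelial markers summed to 64.1, 31.6, 94.3 and 34.9 CPM against 151, 63.6, 205 and 76.5 in B cells. Jchain, the joining chain of secreted antibodies, was at 142, 57.4, 99.8 and 105 CPM, against 95101, 24661, 78763 and 32022 in B cells.

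The ligand of Xcr1 was looked up in the cells known to secrete it. In NK cells (at least 2 UMIs of Ncr1), Xcl1 was at 1324, 45.9, 842 and 276 CPM in 252, 23, 180 and 41 cells, of which 47.2%, 13.04%, 53.9% and 22.0% had a UMI. Both OVA libraries were lower than their partner, and in Vehicle-OVA the value rests on 3 of 23 cells. In cDC1s Xcl1 was at 6.41, 0, 0.612 and 0 CPM.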

How the data were processed

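For each of the 4 libraries the authors deposited a matrix of whole-number UMI counts per gene and cell barcode, made with Cell Ranger 5.0.0 on mm10 per the submitters' processing notes, for called cells only and without normalization. The annotation release is not given in the sources used here. Nasal mucosa was digested and CD45+ cells were enriched with magnetic beads per the labels (the series text names fluorescence-activated sorting), and poly-A RNA was tagged with UMIs on a 10x Chromium instrument, so that counts come from the 3′ ends of transcripts.

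The 315 members and all gene lists were chosen with earlier results of these data known, so that neither is independent of them. From the deposited counts, cells were filtered and cDC1s chosen as described above, UMIs were summed per library and scaled to CPM, and log2 ratios were taken with a pseudocount of 1 CPM over genes with at least 50 UMIs in the pair, where called means past 2-fold. Doublets were marked with the Scrublet function of scanpy 1.11.5 but not removed. With 1 library per group no test was possible and none was run. Shares have exact Clopper-Pearson 95% intervals and CPM ratios exact conditional binomial 95% intervals, which cover counting error only, and a limit of 3 UMIs was used where a library had 0. Depth per library was 91742940 to 171873110 UMIs. Named genes were those of the lists that a sentence is about, the 12 with the largest smallest ratio over Cd209a cells at 50 CPM or more, the 8 highest and 8 lowest in both OVA pairs and the 5 highest and 5 lowest in both ribavirin pairs, without ribosomal, mitochondrial, Gm and Rik genes. Single values of some listed genes are not reported here, while counts and medians over the lists include them. Xcl1 was named after its values were seen, as the ligand of Xcr1. Alternatives changed the filters, thresholds, pseudocount, scaling and denominator. Python 3.11.15, numpy 2.4.6, scipy 1.17.1 and pandas 2.3.3 were used.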

Additional observations from a re-analysis of the deposited data

Results flagged for a closer look

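Of 201 listed or named genes with enough UMIs in both OVA pairs, 22 went opposite ways with OVA in cDC1s under vehicle and under ribavirin, with counting intervals of the ratios on opposite sides of 1. The share of such genes over all genes is not given here, so the count cannot be read as high or low. The 201 also held genes named for going the same way in both OVA pairs. With 1 library per group this difference between the pairs was not tested. Values are the log2 ratio under vehicle minus that under ribavirin.

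Irf1 and 4 other genes of interferon or host defence were lower with OVA under vehicle and higher under ribavirin, with differences of -1.95 for Irf1, -3.05 for Gbp2, -2.31 for Iigp1, -0.30 for H2-K1 and -1.80 for Cybb, a subunit of the phagocyte oxidase. Cell cycle genes went the same way, with -2.38 for Mki67, -3.43 for Top2a, -1.71 for Stmn1, -2.17 for 2810417H13Rik and -6.65 for Cenpf, whose 0 UMIs in Vehicle-OVA make the value depend on the pseudocount. So did Lyz2 (-2.60), Dnase1l3 (-1.41), Cd47 (-0.62), Jund (-0.52) and Btg2 (-0.32). Higher under vehicle and lower under ribavirin were the chemokines Cxcl2 (4.74) and Ccl4 (2.89), the cytokine Il1b (1.89), Nfkbia (1.34), S100a9 (2.55), Ifitm1 (3.47) and Bcl11a (1.68).

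After the median of all genes had been subtracted in each pair, 19 of the 22 still had opposite signs (not H2-K1, Jund and Btg2), and in cells with an Xcr1 UMI all 22 had. Some values rest on 1 cell. Without the cell with the most UMIs of the gene in each library, a step chosen after seeing the data, 19 of the 22 had opposite signs and 11 still had intervals on opposite sides of 1. Lyz2, Cybb and Cenpf were then lower with OVA in both pairs, with log2 ratios of -1.21, -0.22 and -0.26 under ribavirin. The intervals of H2-K1, Gbp2, Iigp1, Stmn1, 2810417H13Rik, Jund, Btg2 and Bcl11a no longer lay on opposite sides, with 0.22 for Gbp2 and 0.15 for Iigp1 under ribavirin. Neutrophil markers in cDC1s, chemokine UMIs in B cells and the depth of Vehicle-OVA went with the genes that were higher under vehicle, and their part was not tested.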

How the results depend on the processing

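Each value was recomputed under 11 alternatives for the shares, 5 for cycling cells and 12 for the genes. Of 44 recomputed shares 41 moved by less than the counting interval, as did all 16 shares of cycling cells. By the summed CPM of the list in place of the share, Vehicle-OVA over Vehicle turned from 1.08 to 0.599 (0.525 to 0.682) and Ribavirin-OVA over Vehicle-OVA went from 1.08 to 2.39 (2.08 to 2.74), within the wide intervals of the shares. The log2 ratio of shares moved to -0.093 for Vehicle-OVA over Vehicle and to 0.10 for Ribavirin-OVA over Vehicle-OVA with neutrophils left out, and to 1.78 for the latter with every cell thinned to 2000 UMIs. The counts of genes past 2-fold depended on the settings, with 36 of 96 beyond 1.5 times the reported count. Given as higher and lower for Vehicle-OVA over Vehicle and then for Ribavirin-OVA over Ribavirin, they were 283 and 107, then 295 and 134 with a pseudocount of 10 CPM. They were 1011 and 365, then 1007 and 401 with at least 20 UMIs per gene, and 70 and 49, then 97 and 76 with at least 200. Centred on the median of all genes they were 230 and 291, then 177 and 432. Without mitochondrial and ribosomal genes in the totals 281 and 305 were higher, and over means of single-cell CPM 504 and 333 were lower.

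For Ribavirin over Vehicle the counts were 47 and 6 with 10 CPM, 206 and 112 with 20 UMIs, 19 and 4 with 200 UMIs, 41 higher with a mitochondrial limit of 5%, and 71 lower over means. For Ribavirin-OVA over Vehicle-OVA they were 289 and 263 with 20 UMIs, 7 and 14 with 200, and 235 and 187 over means, with 46 lower at 4 or more UMIs of Xcr1 and Clec9a and 45 lower in cells with an Xcr1 UMI. Of 624 recomputed ratios of named genes 581 moved little, 37 more and 6 reversed. With 4 UMIs required these were Tgm2 (log2 0.80) and Ptgs2 (0.15) for Ribavirin over Vehicle and Cdkn1a (0.24) for Ribavirin-OVA over Vehicle-OVA, and in cells with an Xcr1 UMI the same 3 at 0.38, 0.085 and 2.1e-05. The cause was not tested. The alternatives with an Xcr1 UMI, with 5000 UMIs per cell and without the largest cell were chosen after seeing the data. No paired analysis was possible because there is 1 library per group and the labels carry no replicate numbers.

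Depth limits Vehicle-OVA most, with 348423 UMIs over 38 cells, and no alternative can stand in for replicate mice.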
